A study of Homo sapiens with 8 samples.

Results

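Transcripts of 10 genes that NF-kB is known to switch on were followed in DLD1, a human colorectal cancer cell line, after knockdown of PPA2, the gene for mitochondrial inorganic pyrophosphatase. The genes were taken by name, with earlier results of these data known. They were matched exactly to the gene symbols of both expression tables, 10 of the 57069 symbols used once in each. They were NFKBIA, TNFAIP3, TNFAIP2, NFKB2, RELB, BIRC3, LTB, IL32, LIF and ICAM1. Cells carried either a control hairpin RNA (shNT, labelled WT for genotype) or 1 directed at PPA2 (shPP), and each kind was kept for 12 hours under normoxia or hypoxia, which gave 4 groups of 2 libraries. The control cells thus also carried a hairpin. Normoxia libraries were given as RPKM and hypoxia libraries as FPKM, both read or fragment numbers scaled by transcript length and library size, in 2 tables normalized separately. Nothing in the labels says that replicates were separate cultures, so p-values reflect only how far these libraries spread, which may be technical. Whether 1 or several hairpin sequences or clones were used is not given in the labels.

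NF-kB is a family of dimeric transcription factors that is held in the cytoplasm by IkB proteins. In the canonical arm, TNF or IL1 family receptors activate the IkB kinase complex, IkB is destroyed, and dimers holding RELA enter the nucleus; in the noncanonical arm, receptors such as LTBR stabilise the kinase MAP3K14, and the NFKB2 precursor is cut to a subunit that pairs with RELB. Among the genes that NF-kB switches on are its own inhibitors and subunits, which close feedback loops, and cytokines and adhesion molecules by which epithelial cells and leukocytes communicate.

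Stretches of genome before a start annotated in RefSeq are shown first for 7 of the genes. The members are grouped by a shared regulator whose binding motif can be seen in the letters. RefSeq windows of the GRCh38.p14 build, from 250 bases before to 50 bases after an annotated start (300 bases), were in the table for 8 of the 10 genes; RELB and LIF had no entry. The 10-base NF-kB consensus was GGGRNNYYCC, with R for A or G, Y for C or T and N for any base. Searched on both strands, it was present in windows of 6 of these 8 genes (LTB, IL32, NFKBIA, TNFAIP3, NFKB2 and BIRC3), against 13.3% of 27305 genes and 11.3% of 35116 windows. NFKB2 and IL32 each also had a window without a match. Because the genes were picked as known NF-kB targets, these shares do not test the grouping. The shorter motif GGAAATTCC, also searched on both strands, was present in 2 of the 8 (ICAM1 and NFKBIA), against 0.56% of genes and 0.461% of windows. In NFKBIA it lay inside the consensus match already counted. The shares for the shorter motif do not test the grouping either. No match was found for either motif in the TNFAIP2 window, which says only that these letters are not there. A match describes the sequence and is not evidence of binding in these cells. The 200 bases that end 51 bases before the start are given for NFKBIA (chr14:35404800-35404999, minus strand), LTB (chr6:31582476-31582675, minus strand) and BIRC3 (chr11:102317234-102317433, plus strand), a feedback inhibitor, a cytokine and a survival gene. All are written 5′ to 3′ on the strand of the gene, with motif matches in capitals.
NFKBIA: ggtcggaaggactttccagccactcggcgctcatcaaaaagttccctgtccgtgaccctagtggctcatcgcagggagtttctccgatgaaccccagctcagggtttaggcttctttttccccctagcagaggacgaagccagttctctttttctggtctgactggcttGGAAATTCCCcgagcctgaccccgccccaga
LTB: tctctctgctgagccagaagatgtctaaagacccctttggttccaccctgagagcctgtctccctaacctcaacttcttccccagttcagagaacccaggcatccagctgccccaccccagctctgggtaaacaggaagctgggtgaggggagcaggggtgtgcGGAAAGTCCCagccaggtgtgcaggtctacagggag
BIRC3: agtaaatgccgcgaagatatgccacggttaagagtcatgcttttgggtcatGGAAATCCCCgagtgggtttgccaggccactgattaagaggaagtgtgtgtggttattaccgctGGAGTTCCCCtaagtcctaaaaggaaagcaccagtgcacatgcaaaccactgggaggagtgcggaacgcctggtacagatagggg

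The NFKBIA match lay 81 to 72 bases before its RefSeq start and the LTB match 86 to 77 bases before its own. The LTB distance depends on which start is taken. BIRC3 held 2 matches, at 199 to 190 and 135 to 126 bases. For the next 4 genes, 30 bases around the matches are given, all on the plus strand: NFKB2 (chr10:102394462-102394491), TNFAIP3 (chr6:137867188-137867217), IL32 (chr16:3065295-3065324) and ICAM1 (chr19:10270924-10270953). The capitals again mark matches, which overlap each other in NFKB2 and IL32, are 2 separate matches in TNFAIP3, and in ICAM1 are the shorter motif. NFKB2 has several annotated starts, and the stretch lies before 1 of them; its further matches, and an LTB match after the start, are not shown. RefSeq starts can differ from the gene bounds in the files given below. By those bounds, the matches shown for LTB, IL32 and NFKB2 lie inside the gene, after its start.
NFKB2: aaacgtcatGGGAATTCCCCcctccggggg
TNFAIP3: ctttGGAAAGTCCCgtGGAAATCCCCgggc
IL32: ctgtactcaGGGAGTTTCCCcagccagctg
ICAM1: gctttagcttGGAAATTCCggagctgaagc

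PPA2 itself checks the labels. Under normoxia its level was 79.8 and 84.1 RPKM with the control hairpin and 5.88 and 5.74 RPKM with its own, and under hypoxia 65.5 and 50.8 against 9.85 and 9.0 FPKM. PPA2 was thus low in every library with the hairpin, and the residual level was higher, relative to control, under hypoxia. The depth of the normoxia libraries, estimated from the steps between low values, was 28024667 to 35715512 reads per library; it was not estimated for hypoxia. All 7 epithelial markers examined were present at both oxygen levels, with summed levels of 3372 to 3456 RPKM in control and 3106 to 3169 RPKM in knockdown libraries under normoxia, and 2349 to 2617 and 2691 to 2711 FPKM under hypoxia. Single markers moved with knockdown: by limma, 2 of the 7 were called higher and 3 lower under normoxia, and 3 higher and 1 lower under hypoxia. Of all tested genes, 22.5% were called higher and 11.7% lower under normoxia, and 24.6% and 33.8% under hypoxia. VIL1 fell from 3.24 and 3.35 to 0.550 and 0.689 RPKM and from 4.51 and 3.92 to 1.35 and 1.32 FPKM (limma adjusted p = 0.000875 and 0.000321). KRT20 rose from 27.4 and 25.0 to 54.2 and 56.1 RPKM and from 22.0 and 24.6 to 59.2 and 58.6 FPKM (limma adjusted p = 0.000373 and 4.5e-05). Under hypoxia CDH1 rose from 141 and 130 to 268 and 240 FPKM and CDX2 from 39.8 and 40.4 to 67.7 and 69.2 FPKM (limma adjusted p = 0.000162 and 0.000126). Neither was called under normoxia. The part of these marker changes in the results was not tested. Of 7 leukocyte markers, 1 exceeded 1 RPKM under normoxia (at most 1.43 RPKM) and none exceeded 1 FPKM under hypoxia; endothelial and fibroblast markers were all under 1. Summed leukocyte markers ranged from 1.01 to 1.33 RPKM in control and 1.15 to 1.58 RPKM in knockdown libraries, and from 0.411 to 0.833 and 0.964 to 1.54 FPKM under hypoxia. Of these, the B cell gene MS4A1 was listed at 0 in every library, and PTPRC, which marks leukocytes in general, was at most 0.018. CD14 had the highest level under normoxia, 1.28 and 0.951 RPKM in control and 1.43 and 1.02 RPKM in knockdown libraries. CD68 measured 0.270 and 0.0741 against 0.307 and 0.947 FPKM under hypoxia. Summed fibroblast markers were 0.402 to 0.409 against 0.486 to 0.491 RPKM and 0.568 to 0.649 against 1.178 to 1.35 FPKM; the part of these low levels in the results was not tested. Per-gene tests used limma on log2(value + 1) over all genes with a mean of at least 1, and a gene was called at a Benjamini-Hochberg adjusted p under 0.05; this scale understates fold changes of low genes.

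Under normoxia, PPA2 knockdown raised most of the group. Of the 9 genes tested, 7 rose (LTB, IL32, ICAM1, RELB, BIRC3, NFKB2 and NFKBIA), 1 fell (LIF) and 1 was not called (TNFAIP3). Of all 14090 genes tested, 34.2% were called, 22.5% higher and 11.7% lower. The median log2 fold change of the 9 was 0.55, against 0.07 over all tested genes. Because the genes were chosen with earlier results of these data known, setting them against all genes does not test the group. Under hypoxia the picture was mixed: 4 rose (LTB, IL32, ICAM1 and RELB), 2 fell (NFKB2 and LIF) and 3 were not called (NFKBIA, TNFAIP3 and BIRC3). Of all 13080 genes tested there, 58.4% were called, 24.6% higher and 33.8% lower. Without knockdown replicate 2, fewer of these genes were called higher under hypoxia, and so were fewer of all genes. With 1 library left out at a time, the log2 fold change there ranged from 0.49 to 0.66 for LTB and 0.27 to 0.34 for ICAM1. For RELB it ranged from 0.40 to 0.69 and for IL32 from 0.91 to 1.14. The median log2 fold change was -0.11, against -0.06 over all tested genes. TNFAIP2, the remaining gene, was below the filter in both tables.

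**Figure D1:**
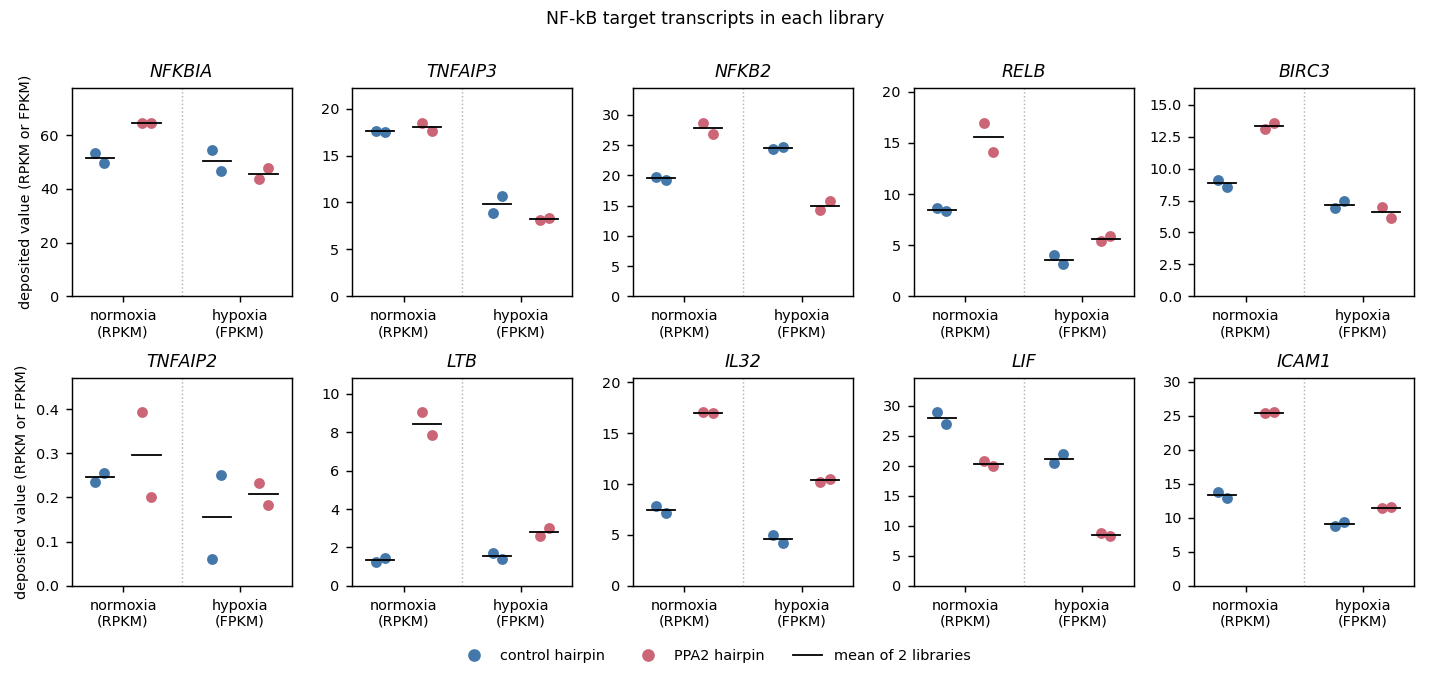
Level of each of the 10 NF-kB target transcripts in every library (points), with the group mean (line), in RPKM under normoxia and FPKM under hypoxia; the tables were normalized separately, so heights are to be compared within an oxygen level. The 2 normoxia libraries with the PPA2 hairpin lie above both controls for LTB (7.87 and 9.04 RPKM against 1.27 and 1.48), while for LIF they lie below at both oxygen levels.

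Among the feedback inhibitors and subunits of the pathway, NFKBIA had the highest level. NFKBIA encodes IkB-alpha, the inhibitor that NF-kB dimers resynthesise to end their own activity (chromosome 14, 35401513 to 35404749, minus strand). Under normoxia it measured 53.3 and 49.6 RPKM in control cells and 64.7 and 64.5 RPKM after knockdown, means of 51.4 ± 2.65 and 64.6 ± 0.112 RPKM (SD, n = 2). Both knockdown libraries lay above both controls. The log2 fold change was 0.32 ± 0.06 (SE; limma adjusted p = 0.00697), which became an adjusted p of 0.054 without control replicate 2. Under hypoxia the values were 54.5 and 46.6 FPKM in control cells and 43.8 and 47.7 FPKM after knockdown. These groups overlapped, and the log2 fold change of -0.14 ± 0.09 was not called (limma adjusted p = 0.232); without control replicate 2 it was -0.25 with an adjusted p of 0.0382, and it turned to 0.053 when transcripts of the mitochondrial genome were left out of the scaling. NFKBIA was the highest of the 10 genes in all 4 groups.

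TNFAIP3 encodes a ubiquitin-editing enzyme that shuts down signalling from TNF receptors (chromosome 6, 137867214 to 137883312, plus strand). It measured 17.7 and 17.5 RPKM in control cells and 18.5 and 17.7 RPKM after knockdown under normoxia. The 4 values lay within 1 RPKM of one another, and the log2 fold change of 0.04 ± 0.06 was not called (limma adjusted p = 0.656; 95% interval -0.10 to 0.18). Its sign turned under quantile normalization (-0.024) and median-of-ratios scaling (-0.077). Under hypoxia it measured 8.90 and 10.7 FPKM against 8.10 and 8.29 FPKM. Both knockdown libraries were lower than both controls, but the log2 fold change of -0.23 ± 0.10 was not called (limma adjusted p = 0.0975); without control replicate 1 it was -0.35 with an adjusted p of 0.0186. TNFAIP2, a TNF-induced gene on chromosome 14 (103121476 to 103137439, plus strand), was barely present: 0.235 and 0.256 against 0.392 and 0.201 RPKM under normoxia, and 0.0614 and 0.252 against 0.233 and 0.183 FPKM under hypoxia. Its groups overlapped in both tables, and with no filter its log2 fold changes were 0.05 and 0.07 (limma adjusted p = 0.787 and 0.675).

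NFKB2, the precursor of the noncanonical subunit (chromosome 10, 102394110 to 102402524, plus strand), was the single gene of the 10 called in opposite directions. Under normoxia it measured 19.8 and 19.2 RPKM in control cells and 28.7 and 26.9 RPKM after knockdown, means of 19.5 ± 0.375 and 27.8 ± 1.26 RPKM (SD, n = 2). Under hypoxia it measured 24.3 and 24.7 FPKM in control cells and 14.3 and 15.7 FPKM after knockdown, means of 24.5 ± 0.290 and 15.01 ± 0.956 FPKM (SD, n = 2). The groups did not overlap in either table, with knockdown above control under normoxia and below it under hypoxia. The log2 fold change was 0.49 ± 0.06 (limma adjusted p = 0.00246) under normoxia and -0.67 ± 0.08 (limma adjusted p = 0.000412) under hypoxia.

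RELB, the partner of the processed NFKB2 product (chromosome 19, 45001449 to 45038198, plus strand), did not share that reversal. It measured 8.61 and 8.33 RPKM against 17.0 and 14.1 RPKM under normoxia and 4.01 and 3.11 FPKM against 5.36 and 5.86 FPKM under hypoxia. Knockdown libraries were above controls at both oxygen levels. The log2 fold change was 0.80 ± 0.09 (limma adjusted p = 0.00209) under normoxia and 0.54 ± 0.13 (limma adjusted p = 0.00916) under hypoxia, where the call was lost when genes of any level were tested (adjusted p = 0.0734). BIRC3 encodes a ubiquitin ligase that protects cells from TNF-induced death and restrains MAP3K14 (chromosome 11, 102317450 to 102339403, plus strand). It measured 9.13 and 8.56 RPKM in control cells and 13.1 and 13.6 RPKM after knockdown under normoxia. Both knockdown libraries were higher than both controls there, with a log2 fold change of 0.55 ± 0.07 (limma adjusted p = 0.00263). Under hypoxia it measured 6.93 and 7.45 FPKM against 7.02 and 6.13 FPKM. These groups overlapped, and the log2 fold change of -0.11 ± 0.10 was not called (limma adjusted p = 0.356; 95% interval -0.35 to 0.12); with mitochondrial genome transcripts left out of the scaling it was 0.056.

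Among the cytokines, LTB had the largest log2 fold change of the 9 tested genes under normoxia; under hypoxia those of LIF, IL32 and NFKB2 were larger in size. LTB encodes lymphotoxin beta, the membrane anchor of the LTBR ligand (chromosome 6, 31580525 to 31582522, minus strand). It measured 1.27 and 1.48 RPKM in control cells and 9.04 and 7.87 RPKM after knockdown under normoxia, means of 1.37 ± 0.146 and 8.45 ± 0.829 RPKM (SD, n = 2). The ratio of these means was 6.16. On the log2(RPKM + 1) scale the fold change was 1.99 ± 0.11 (limma adjusted p = 0.000258), rank 2 among the rises of all 14090 genes; with a pseudocount of 0.1 it was 2.54. In control cells LTB lay at the 9.16th percentile of genes with a mean of at least 1, and after knockdown at the 44.4th. Under hypoxia it measured 1.69 and 1.39 FPKM in control cells and 2.59 and 2.99 FPKM after knockdown. The groups were again apart but closer, with a log2 fold change of 0.58 ± 0.13 (limma adjusted p = 0.00898). That call was lost without knockdown replicate 2 (adjusted p = 0.0715) and when genes of any level were tested (adjusted p = 0.0706).

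IL32 encodes a cytokine that induces TNF and other inflammatory mediators (chromosome 16, 3065297 to 3082192, plus strand). It measured 7.79 and 7.11 RPKM against 17.0 and 16.9 RPKM under normoxia and 5.04 and 4.17 FPKM against 10.2 and 10.5 FPKM under hypoxia. Knockdown libraries were well above both controls in each table. The log2 fold change was 1.09 ± 0.07 (limma adjusted p = 0.000409) under normoxia and 1.02 ± 0.10 (limma adjusted p = 0.000286) under hypoxia.

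LIF encodes leukemia inhibitory factor, a secreted cytokine that signals through LIFR and IL6ST to STAT3 (chromosome 22, 30240453 to 30246759, minus strand). It was the single gene of the group that fell at both oxygen levels. Under normoxia it measured 28.9 and 27.0 RPKM in control cells and 20.7 and 19.9 RPKM after knockdown, and under hypoxia 20.4 and 21.9 FPKM against 8.73 and 8.30 FPKM. The groups did not overlap in either table. The log2 fold change was -0.44 ± 0.06 (limma adjusted p = 0.00368) under normoxia and -1.22 ± 0.08 (limma adjusted p = 6.34e-05) under hypoxia. LIF overlaps the genes LIF-AS1 and AC004264.1, and whether counting used strand is not stated. The overlapping transcripts were low, at most 0.277 for LIF-AS1 and 0.984 to 2.54 RPKM or 1.04 to 1.42 FPKM for AC004264.1.

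ICAM1, the adhesion molecule that leukocyte integrins bind (chromosome 19, 10271093 to 10286615, plus strand), measured 13.8 and 13.0 RPKM in control cells and 25.4 and 25.5 RPKM after knockdown under normoxia. Under hypoxia it measured 8.84 and 9.35 FPKM against 11.4 and 11.5 FPKM. Knockdown libraries were above controls in both tables, by a wider gap under normoxia. The log2 fold change was 0.88 ± 0.06 (limma adjusted p = 0.000474) under normoxia and 0.30 ± 0.08 (limma adjusted p = 0.015) under hypoxia. The hypoxia call was lost when either knockdown library was left out, with an adjusted p of 0.0934 without replicate 1 and 0.109 without replicate 2. IL32, ICAM1 and TNFAIP3 also overlap antisense or small genes in the annotation. Those overlapping IL32 and ICAM1 were at most 0.106 RPKM or 0.0641 FPKM. The gene overlapping TNFAIP3, AL357060.1, was listed at 0 in all normoxia libraries.

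Taking the group by overlap alone, knockdown lay wholly above control for 8 of the 9 tested genes under normoxia and wholly below for 1. Of all tested genes, 70.5% had groups apart, 44.2% with knockdown above and 26.4% below. Under hypoxia it lay above for 4 and below for 3. Of all tested genes there, 80.4% had groups apart, 35.5% above and 44.9% below.

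The response to knockdown was then compared between oxygen levels by an interaction term fitted over the 8 libraries together. Of the 9 genes, 6 had a lower response under hypoxia (LTB, NFKB2, LIF, BIRC3, ICAM1 and NFKBIA), 0 had a higher one and 3 were not called. Of 13585 genes tested, 42.4% were called, 29.0% lower and 13.4% higher. All 9 estimates were below 0, although that of IL32 turned positive under 3 scalings (0.050 to 0.069) and without hypoxia control replicate 1 (0.045). This count of signs is not a result about the group, since the median over all 13585 genes was below 0 as well. The median difference of responses of the 9 was -0.58 on the log2 scale, against -0.13 over all tested genes. The latter was 0.00 under quantile normalization and -0.01 under median-of-ratios scaling. LTB differed by -1.42 ± 0.16 (limma adjusted p = 0.00016), NFKB2 by -1.16 ± 0.10 (limma adjusted p = 3e-05) and LIF by -0.78 ± 0.10 (limma adjusted p = 0.000261). These differences were of 3 kinds: a smaller rise for LTB, a turn from rise to fall for NFKB2, and a deeper fall for LIF. BIRC3 differed by -0.66 ± 0.12, ICAM1 by -0.58 ± 0.09 and NFKBIA by -0.46 ± 0.11 (limma adjusted p = 0.00182, 0.00109 and 0.00946). The NFKBIA call was lost under median-of-ratios scaling (-0.32, adjusted p = 0.0648).

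For 3 genes a difference was not called. IL32 differed by -0.07 ± 0.13 (limma adjusted p = 0.695; 95% interval -0.35 to 0.22), RELB by -0.26 ± 0.16 (adjusted p = 0.225; -0.62 to 0.10) and TNFAIP3 by -0.26 ± 0.12 (adjusted p = 0.103; -0.53 to 0.00). These intervals do not show that the responses were alike. TNFAIP3 passed without hypoxia control replicate 1 (-0.39, adjusted p = 0.011). The fall of PPA2 itself was smaller under hypoxia, -2.49 ± 0.12 against -3.61 ± 0.06 on the log2 scale (difference 1.11 ± 0.15, limma adjusted p = 0.00034), and its part in these differences was not tested. Oxygen level and table coincide, so an effect of oxygen on the response and an effect of how the tables were made cannot be told apart.

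**Figure D2:**
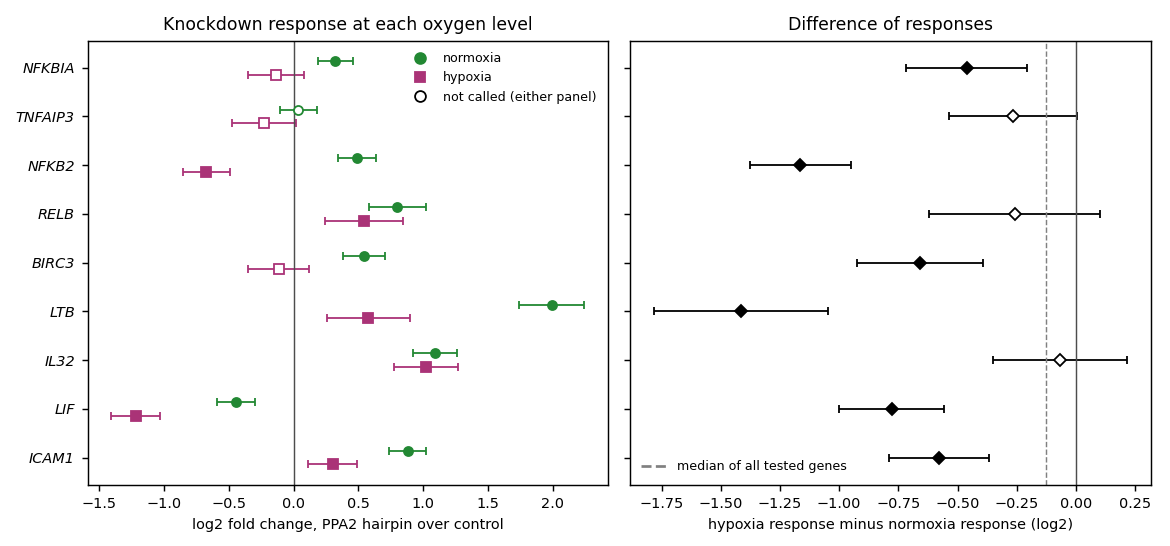
Left, log2 fold change of each tested gene after PPA2 knockdown under normoxia (circles) and hypoxia (squares) with 95% confidence intervals from limma; right, the hypoxia response minus the normoxia response, with the dashed line at the median of all tested genes (-0.13). Open symbols were not called; LTB (-1.42) and NFKB2 (-1.16) lie furthest to the left, and IL32 nearly coincides at both oxygen levels (1.09 and 1.02).

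Levels at both oxygen levels can be set side by side, with no test, since the tables were normalized separately. In control cells the ratio of the hypoxia mean in FPKM to the normoxia mean in RPKM was 1.26 for NFKB2, 1.12 for LTB and 0.982 for NFKBIA, and it was lowest for RELB (0.42) and TNFAIP3 (0.557); the median over all tested genes was 0.809. In knockdown cells all 10 ratios were below 1, from 0.33 for LTB and 0.361 for RELB to 0.708 for NFKBIA, with a median over all tested genes of 0.741. NFKBIA had rank 1, LTB rank 9 and TNFAIP2 rank 10 in each of the 4 groups. The neighbours RELB and BIRC3 in normoxia controls (8.47 ± 0.199 and 8.85 ± 0.402 RPKM) differed by less than the sum of their SDs, and so did ICAM1 and TNFAIP3 in hypoxia controls (9.10 ± 0.365 and 9.81 ± 1.28 FPKM). LIF had rank 2 in normoxia controls and rank 5 in hypoxic knockdown cells.

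The receptors of LTB and LIF were measured in the same libraries. LTBR, the lymphotoxin receptor, measured 55.9 and 56.0 against 60.9 and 51.5 RPKM under normoxia and 42.7 and 46.3 against 38.1 and 42.3 FPKM under hypoxia. Groups overlapped under normoxia and were narrowly apart under hypoxia, with log2 fold changes of 0.00 and -0.14 that were not called (limma adjusted p = 0.991 and 0.156). IL6ST, the signalling receptor shared by LIF and related cytokines, rose where LIF fell. Its level was 64.7 and 65.2 against 89.5 and 96.7 RPKM under normoxia (log2 fold change 0.51 ± 0.06, limma adjusted p = 0.00179) and 18.6 and 24.0 against 35.8 and 34.6 FPKM under hypoxia (0.71 ± 0.11, limma adjusted p = 0.00191). LIFR, the LIF-binding chain, was at most 0.0163 RPKM under normoxia and was listed at 0 in all hypoxia libraries.

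The wider pathway was read from 8 lists, some of which contain members of the group. NFKBIA, NFKB2 and RELB were among the subunits and IkB proteins. BIRC3 was among the ubiquitin regulators, LTB among the ligands and ICAM1 in the list of its family. The lists too were chosen with earlier results of these data known. Of all tested genes, 22.5% were called higher and 11.7% lower under normoxia, and 24.6% and 33.8% under hypoxia. Each list count from the unaltered fit is to be read against these shares. Counts with a library left out or under another scaling are not, since the share of all genes called changed there too. Of 11 NF-kB subunits and IkB proteins, 6 rose and 0 fell under normoxia (median log2 fold change 0.28), and 3 rose and 4 fell under hypoxia (median 0.00). The members NFKBIA, NFKB2 and RELB were among the 6, so this count partly repeats that of the group. Without normoxia control replicate 2, 3 rose under normoxia, and 5 rose under hypoxia under quantile normalization or with mitochondrial genome transcripts left out. RELA, the main activating subunit, named after its values were seen, did not pass under normoxia (0.00) and fell by 0.53 on the log2 scale under hypoxia; REL was at 0.28, not called, and then rose by 0.68. The IkB proteins NFKBIB and NFKBID were not called under normoxia (0.05 and -0.04) and fell under hypoxia (-0.73 and -1.31). Of 17 kinases and adaptors, 7 rose and 1 fell under normoxia, and 6 rose and 5 fell under hypoxia, against the same shares of all genes. The fall under normoxia was lost without control replicate 2 or knockdown replicate 2 (0 fell), and 3 fell under hypoxia without knockdown replicate 2. The IkB kinase subunits CHUK and IKBKG were not called under normoxia (-0.01 and -0.02) and fell under hypoxia (-0.64 and -0.71). MAP3K8 (0.73 and 0.89) and the Toll-like receptor adaptor MYD88 (0.37 and 0.68) rose at both oxygen levels. MAP3K14, the noncanonical kinase, named after its values were seen, rose by 0.51 under normoxia and fell by 0.36 under hypoxia on the log2 scale, in the same directions as NFKB2.

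Of 17 ubiquitin regulators tested under normoxia, 7 rose and 1 fell (all genes, 22.5% and 11.7%); of 18 tested under hypoxia, 3 rose and 5 fell (all genes, 24.6% and 33.8%). Under normoxia 4 rose without control replicate 2 and 2 fell without knockdown replicate 1; under hypoxia 6 rose and 4 fell under quantile normalization. Of the linear ubiquitin ligase complex, RBCK1 fell at both oxygen levels (-0.47 and -0.89). RNF31, untested under normoxia, fell by 0.95 on the log2 scale under hypoxia. It was at most 0.192 RPKM under normoxia, against 3.97 and 5.57 FPKM in hypoxia controls. Whether this gap came from how the 2 tables were made was not tested. XIAP, a caspase inhibitor related to BIRC3, rose at both (0.24 and 0.78). Of the TNF and IL1 family ligands, 3 of 8 tested rose and 0 fell under normoxia, and 4 of 9 rose and 2 fell under hypoxia, against the same shares of all genes. Under normoxia 1 rose without knockdown replicate 2, and under hypoxia 2 rose with either knockdown library left out. TNFSF15 (0.33 and 1.0) and the death ligand TNFSF10 (0.59 and 0.64) rose at both, and IL18 was not called under normoxia (-0.08) and fell under hypoxia (-0.75). Of 13 receptors, 7 rose and 1 fell under normoxia, and 4 rose and 3 fell under hypoxia, again against those shares. Under normoxia 3 rose without control replicate 2 and 4 with either knockdown library left out, and 0 fell without control replicate 1. The death receptor FAS rose by 0.93 and then fell by 0.57 on the log2 scale, TNFRSF1B (0.32 and 0.85) and TLR3 (0.50 and 0.84) rose at both, and TNFRSF12A, a receptor that feeds the noncanonical arm, was not called under normoxia (0.11) and fell under hypoxia (-0.99).

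Of 34 other NF-kB target genes, 19 rose and 3 fell under normoxia (median log2 fold change 0.28; all genes, 22.5% higher and 11.7% lower). Under hypoxia 12 rose and 9 fell (median 0.19; all genes, 24.6% and 33.8%). The 4 changes of largest size over both tables were falls under hypoxia. Under normoxia the 4 of largest size, named after their values were seen, were rises, of TNC (1.45), SAA2 (1.40), PLAU (1.32) and SAA1 (1.24). They encode a matrix protein, a urokinase and 2 acute-phase proteins with closely similar sequences. Their means were also higher with knockdown under hypoxia. From control to knockdown they were 1.24 and 2.44 FPKM for TNC, 5.61 and 14.2 for SAA2, 2.70 and 7.66 for PLAU, and 34.5 and 68.9 for SAA1. The neutrophil chemokine CXCL8 fell by 0.49 and 1.91 on the log2 scale, CXCL3 by 0.50 and 1.63, and the survival gene IER3 by 0.99 and 1.90. CXCL2 was not called under normoxia (0.20) and fell by 1.65 under hypoxia. The response differed between oxygen levels by -1.42 for CXCL8 and -0.91 for IER3 (limma adjusted p = 1.42e-05 and 0.000176).

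Of the LIF receptor and STAT3 feedback genes, 2 of 8 tested rose and 0 fell under normoxia, and 3 rose and 1 fell under hypoxia, or 2 without knockdown replicate 2. The shares of all genes were 22.5% higher and 11.7% lower under normoxia and 24.6% and 33.8% under hypoxia. The kinase JAK1 rose at both (0.31 and 0.64), and TYK2 was not called under normoxia (0.21) and fell under hypoxia (-1.25). PIM1, a STAT3 target, was not called under normoxia (-0.02) and rose under hypoxia (0.24). Of the ICAM family and other leukocyte ligands, 4 of 8 tested rose and 1 fell under normoxia, and 5 of 9 rose and 2 fell under hypoxia, against the same shares of all genes. Without normoxia control replicate 1, 1 rose and 0 fell under normoxia; under hypoxia 3 rose with either knockdown library left out, and 1 fell without control replicate 1 or either knockdown library. F11R, a junctional adhesion molecule, rose at both (0.32 and 0.63), as did CD58, the ligand of CD2 (0.34 and 0.54), and ICAM5 was not called under normoxia (-0.10) and fell under hypoxia (-0.93).

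**Figure D3:**
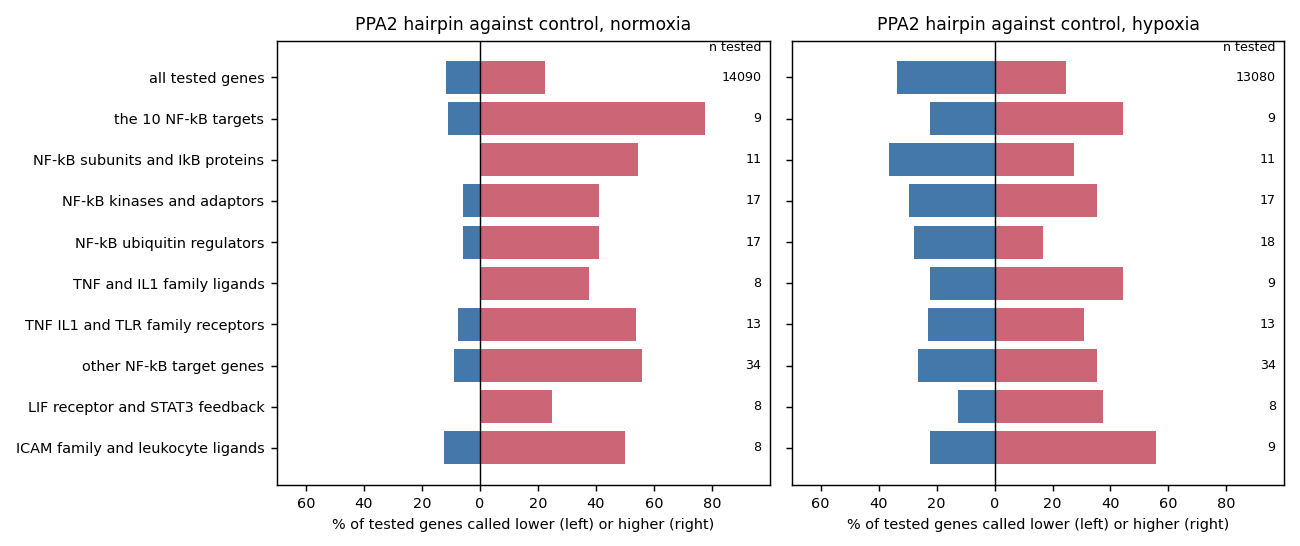
Percentage of tested genes called lower (left of 0, blue) or higher (right of 0, red) after PPA2 knockdown under normoxia and hypoxia, for all tested genes, the 10 NF-kB targets and 8 pathway lists, some of which contain members of the 10; n tested is given at the right. Under normoxia the subunit and IkB list had 6 genes higher and 0 lower of 11, and under hypoxia 3 higher and 4 lower. That list contains NFKBIA, NFKB2 and RELB of the 10 targets.

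The genes nearest to LTB and LIF in pattern were found by Euclidean distance over the 8 library values of log2(value + 1), centred on the control mean of each table, among 13585 genes. For LTB they were PSMB9 (distance 0.678), an immunoproteasome subunit, WNT5A (0.765) and KRTAP3-1 (0.796). For LIF they were SLC3A2 (0.0892), the heavy chain of amino acid transporters, AC083843.2 (0.117) and CENPV (0.155). The distances were smaller for LIF than for LTB. PSMB9, WNT5A and KRTAP3-1 had mean log2 differences of 1.80, 1.76 and 1.81 under normoxia and 1.01, 1.02 and 1.09 under hypoxia, where that of LTB was 0.58.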

How the data were processed

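Messenger RNA was sequenced from 8 libraries of DLD1 cells. Per the labels' protocols, poly(A) RNA went into directional libraries. The submitters' processing notes name cutadapt 1.18, Trimmomatic 0.35, FastQC, HISAT2 2.1.0 and the build GRCh38; the sources used here name neither a counting tool nor an annotation. Per the file headers, the authors deposited normoxia values as RPKM (60234 genes) and hypoxia values as FPKM (60612 genes). An annotated hypoxia sheet of 19630 genes supplied coordinates, and 0 of its values differed. A further 4 columns of other samples were not used.

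Knockdown was compared with control within each table with limma 3.58.1 in R 4.3.3 (moderated test, mean-variance trend) on log2(value + 1), for genes with a mean of at least 1, with Benjamini-Hochberg adjustment over all genes tested. The difference of responses was the interaction term over 8 libraries. Steps were tested on simulated data. Without counts, error was taken from 2 libraries per group, and the median standard error was 0.08 under normoxia, 0.10 under hypoxia and 0.13 for the difference. Depth under normoxia was estimated from whole-read steps of low values; 90.4% to 91.1% of values worth at most 20 reads were whole to a tolerance of 0.02.

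The 10 members and the lists were chosen with earlier results of these data known. All members were named, with up to 4 genes per list with the largest absolute log2 fold change among those called, and the receptors LTBR, IL6ST and LIFR. RELA, MAP3K14, TNC, SAA1, SAA2, PLAU and the markers were named outside this rule. Alternatives were pseudocounts of 0.1 and 0.01, filters, scalings, thresholds, a robust fit, a fit without trend, both tables in 1 fit, a replicate block and leaving out each library. Python 3.11.15, numpy 2.4.6, pandas 2.3.3 and matplotlib 3.10.9 were used.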

Additional observations from a re-analysis of the deposited data

Results flagged for a closer look

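For 6 of the 9 tested NF-kB target genes, the response to PPA2 knockdown differed between hypoxia and normoxia by the interaction test in limma, in which 42.4% of all 13585 genes were called. The differences on the log2 scale, hypoxia minus normoxia, were -1.42 for LTB, -1.16 for NFKB2, -0.78 for LIF, -0.66 for BIRC3, -0.58 for ICAM1 and -0.46 for NFKBIA. The oxygen level and the table coincide in this comparison and cannot be told apart.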

How the results depend on the processing

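Of 102 counts of called members recomputed under the alternatives, 99 stayed within 1.5 times the value given and 3 moved. Members called higher under hypoxia numbered 2 in place of 4 with no filter and with a filter at a mean of 5, where LTB and RELB are not tested. That number was also lower with either knockdown library left out, as was the number of all genes called higher. Of 455 member fold changes, 434 kept their direction and side of the threshold, 9 passed no longer, 4 passed newly and 8 turned sign. The turned values were -0.024 and -0.077 for TNFAIP3 under normoxia (quantile normalization and median-of-ratios scaling), 0.053 for NFKBIA and 0.056 for BIRC3 under hypoxia (mitochondrial genome genes left out), and, for the IL32 difference, 0.069, 0.050 and 0.060 under quantile normalization, that omission and median-of-ratios scaling, with -0.179 to 0.045 over left-out libraries; the cause was not tested. Scaling moved the median log2 fold change of all genes from 0.07 to between -0.04 and 0.11 under normoxia, from -0.06 to between -0.04 and 0.10 under hypoxia and from -0.13 to between -0.02 and 0.00 for the difference. The share of calls that were higher was 65.7% under normoxia (52.3%, 75.5% and 39.5% under quantile, mitochondrial omission and median-of-ratios), 42.2% under hypoxia (50.9%, 60.4% and 45.2%) and 31.5% for the difference (50.7%, 47.1% and 49.4%). With no filter, 6.79%, 20.8% and 12.9% of genes were called.

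Replicate numbers are shared between groups, but nothing in the labels says that they pair samples. Deviations of same-numbered libraries correlated across genes at 0.04 under normoxia and -0.02 under hypoxia. With the replicate block, 7 members were called higher and 1 lower under normoxia, 4 and 2 under hypoxia, and 0 and 6 for the difference, as without it, and 35.9%, 59.3% and 40.3% of all genes were called.

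Of 512 pathway list counts, 453 stayed within 1.5 times and 59 moved. The share of all genes called changed with the setting too, so these counts are not to be read against the shares given above. At an adjusted p under 0.01 it was 15.2% under normoxia and 42% under hypoxia. With median-of-ratios scaling under normoxia, 1921 of 14062 genes were called higher and 2937 lower, against 3165 and 1653 of 14090 without it. With no filter, ligands had 1 higher and 1 lower at each oxygen level, receptors 1 higher and kinases 0 lower under normoxia, and ubiquitin regulators 3 and ICAM genes 1 lower under hypoxia. With a mean of at least 5, ligands had 1 higher under normoxia and 2 under hypoxia, and under hypoxia receptors had 2 higher, ubiquitin regulators 3 lower and ICAM genes 1 lower. Quantile normalization gave, under hypoxia, 5 subunits and 6 ubiquitin regulators higher and 1 ICAM gene lower. Leaving out mitochondrial genome genes gave 4 LIF pathway genes higher under normoxia, and under hypoxia 5 subunits and 7 ubiquitin regulators higher, 2 kinases lower and 1 ICAM gene lower. Median-of-ratios scaling gave, under normoxia, ubiquitin regulators 4 higher and 2 lower, receptors 4 higher, ligands 1 lower and other targets 5 lower. At an adjusted p under 0.01, normoxia had ubiquitin regulators 4, receptors 2, ligands 1 and ICAM genes 2 higher and kinases 0 and ICAM genes 0 lower; hypoxia had ligands 2 and ICAM genes 3 higher, and ligands 1 and ICAM genes 1 lower. The fits without trend and of all libraries gave 2 LIF pathway genes lower under hypoxia. Over left-out libraries under normoxia, the range was 3 to 5 subunits, 4 to 7 ubiquitin regulators, 1 to 3 ligands, 3 to 6 receptors and 1 to 4 ICAM genes higher, and 0 to 1 kinases, 1 to 2 ubiquitin regulators, 0 to 1 receptors and 0 to 1 ICAM genes lower. Under hypoxia it was 2 to 4 ligands and 3 to 5 ICAM genes higher, and 3 to 5 kinases, 1 to 2 LIF pathway genes and 1 to 2 ICAM genes lower.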
